A study of Penicillium oxalicum with 15 samples.

Results

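The effect of losing the repressor CreA was examined in the filamentous fungus Penicillium oxalicum on cellulose, by comparing a creA deletion strain with the reference strain M12. Every gene that reached 1 FPKM (a fragment count divided by the length of the gene and by the total of its library) in at least 3 of the 15 libraries of the series entered the comparison, which gave 8765 of 9976 genes. The 6 libraries compared were 3 of the creA deletion strain and 3 of M12, which the study named as its control. Mycelia of both strains had been grown for 22 h in Vogel's medium with 2% glucose and were then kept for 4 h with 2% (w/v) cellulose at 30 °C and 200 rpm. A glucose preculture is therefore shared by all of the cellulose groups. Values of M12 kept for the same 4 h on 2% glucose, and of the strain gClrBID on cellulose, are given beside them. The labels describe gClrBID as overexpressing an internal mutant of the activator ClrB. Its clrB transcript was lower than in M12 in these cellulose libraries, at 56.0, 76.2 and 88.8 FPKM against 160, 148 and 150 FPKM (log2 difference -1.06 ± 0.11, SE, limma adjusted p = 6.6e-07). The direction of that label was thus not seen on cellulose, but it was seen on glucose. In the glucose libraries clrB stood at 469.4 ± 16.38 FPKM in gClrBID and at 10.06 ± 0.345 FPKM in M12 (SD, n = 3 each). Glucose cultures of the deletion strain were not analysed here. How the deletion was made, how many transformants were used and which promoter drives the ClrB mutant are not given in the sources used here. The series text calls the triplicates biological without describing the cultures, so the p-values speak only of the spread among the libraries.

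Filamentous fungi that live on plant cell walls secrete cellulases and hemicellulases only when the polymers are present and easily used sugars are scarce. CreA is a zinc finger protein that binds promoters and represses genes for the use of other carbon sources while glucose is available, a control called carbon catabolite repression. Against it stand activators such as ClrB and XlnR, which switch on cellulase and xylanase genes, and AmyR, which switches on amylase genes.

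The M12 libraries on cellulose held 13621129, 14736953 and 15930698 fragments and the creA deletion libraries 15223577, 14715236 and 18361206, as worked back from the FPKM values. Between replicates, Pearson's r across genes of log values was 0.994 to 0.996 in these 6 libraries. creA itself (PDE_03168) stood at 407, 423 and 472 FPKM in M12 on cellulose, and at 0.105, 0.0542 and 0 FPKM in the deletion libraries, from 2, 1 and 0 fragments. The label of the deletion strain thus matched the loss of this transcript in all 3 libraries. In M12 on glucose creA stood at 71.3 ± 2.37 FPKM (SD, n = 3). The deposited table gives identifiers without gene names. The 15 names used here are those known for these tags from work on the species. Apart from the loss of creA and the higher clrB level of gClrBID on glucose, which was not seen on cellulose, no value in these data checks them. These are bulk samples, in which fewer cells of a type and less RNA per cell cannot be told apart.

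Most tested genes differed between the creA deletion and M12 on cellulose. By the FPKM values as given, few genes rose by large factors and many fell by small ones. Of the 8765 genes, 6611 were called (75.4%; limma, Benjamini-Hochberg adjusted p under 0.05), 1860 of them higher (21.2%) and 4751 lower (54.2%) in the deletion. At a change of at least 2-fold, 475 genes were higher (5.42%) and 1236 were lower (14.1%). Larger changes ran the other way. At least 8-fold, 123 were higher and 45 were lower, and at least 16-fold 63 were higher and 6 lower. At least 32-fold, there were 29 rises, and the fall of creA was the only one on the fitted scale. All of these classes were cut on log2(FPKM + 1), which shrinks the changes of genes near 0 in either strain. By the ratio of mean FPKM, creA was not the only fall of that size. The counts of large rises and falls were not repeated without that added 1 FPKM. The middle 50% of all genes lay between -0.69 and 0.12 on the log2 scale, around a median of -0.28. That median depends on how the columns are scaled. When the columns were rescaled to the median ratio between libraries, the median moved up by 0.28 to 0.00. The split of calls then became 3208 higher (36.6%) and 3078 lower (35.1%), and at least 2-fold 717 higher (8.18%) and 740 lower (8.44%). At least 8-fold, 150 genes were higher and 25 lower under that rescaling. It moves values towards rises, so it could not have reversed the order at 8-fold and is no check of it.

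**Figure D1:**
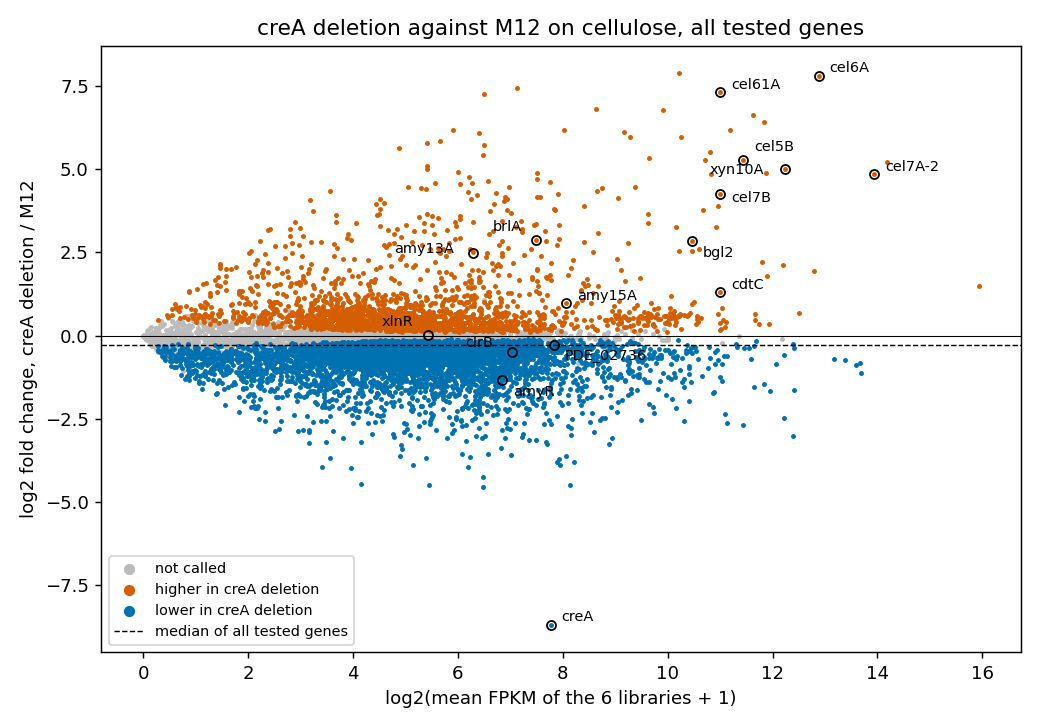
Log2 fold change between the creA deletion and M12 on cellulose against the log2 mean level of the 6 libraries, 1 point per tested gene, with the 16 fixed genes ringed. The changes of at least 8-fold lie mostly above 0 (123 higher, 45 lower), the cellulase genes are at the upper right, and the dashed line marks the median of -0.28.

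The genes that rose took a larger share of the RNA in the deletion strain. The 475 genes higher at least 2-fold took 4.396%, 4.33% and 4.63% of the fragments in the M12 libraries and 32.1%, 32.5% and 32.8% in the deletion libraries. The 1236 genes lower at least 2-fold went from 28.0% ± 0.0643 to 8.90% ± 0.260 of the fragments, and the other 7054 tested genes from 67.5% ± 0.125 to 58.6% ± 0.119 (SD, n = 3 each). These classes were cut on the same comparison, so their shares describe how much RNA was involved and are no test. In gClrBID on cellulose the 475 genes took 10.5% ± 0.422 of the fragments, and in M12 on glucose 2.32% ± 0.00694 (SD, n = 3 each).

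The concentration of the RNA in few genes can be read without any choice of genes. The 100 most abundant genes of each library held 27.0%, 26.9% and 27.1% of the fragments in M12 and 37.7%, 38.1% and 38.3% in the deletion. The 10 most abundant held 8.46% ± 0.0803 in M12 and 18.1% ± 0.156 in the deletion (SD, n = 3 each). In M12, 511, 510 and 509 genes were needed to reach 50% of the fragments, whereas 291, 273 and 271 sufficed in the deletion. The groups did not overlap in any of these 3 measures, and an exact two-sided permutation test of 3 against 3 libraries cannot give a p below 0.1. Expression stayed broad at the same time. Between 8361 and 8393 genes reached 1 FPKM in the M12 libraries and between 8218 and 8255 in the deletion libraries. The median level of the tested genes was 28.8 to 29.0 FPKM in M12 and 23.9 to 24.7 FPKM in the deletion.

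**Figure D2:**
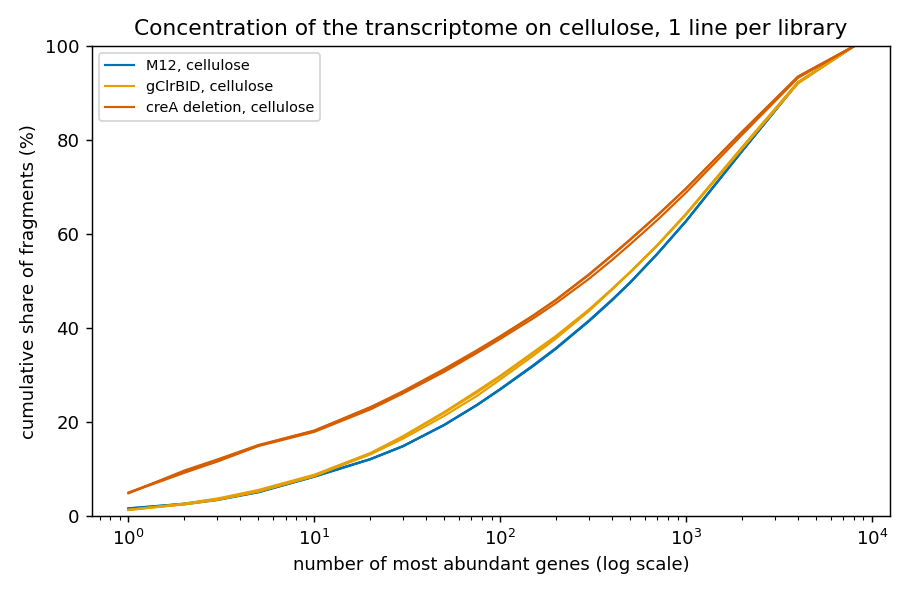
Cumulative share of the fragments (%) against the rank of the genes by abundance on a log scale, 1 line per library, for M12, gClrBID and the creA deletion on cellulose. The 3 deletion lines run above the 3 M12 lines, reaching 37.7% to 38.3% at 100 genes against 26.9% to 27.1%.

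The 5 cellulase genes all rose in the deletion (5 of 5 higher, beside 21.2% of all tested genes). Their median log2 fold change was 5.28, against -0.28 over all tested genes. They encode enzymes that act together on the cellulose chain, namely cellobiohydrolases, endoglucanases and a lytic polysaccharide monooxygenase. cel7A-2 (PDE_07945), a cellobiohydrolase gene, stood at 997, 1031 and 1109 FPKM in M12 and at 30754, 29769 and 30294 FPKM in the deletion. It was the most abundant gene of the deletion libraries by fragments, with 4.97% ± 0.0809 of them against 0.172% ± 0.00944 in M12 (SD, n = 3 each). Its mean was 29.0 times as high (adjusted p = 1.8e-16).

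cel6A (PDE_07124), the other cellobiohydrolase gene, which acts from the opposite chain end, stood at 66.5, 58.4 and 73.3 FPKM in M12 and at 15113, 14243 and 15657 FPKM in the deletion. The difference was 7.81 ± 0.08 in log2 units (SE, 3 libraries a group, adjusted p = 5.5e-19). cel61A (PDE_05633), for a lytic polysaccharide monooxygenase, which cuts the crystalline chain by oxidation, stood at 24.47, 24.07 and 25.03 FPKM in M12 and 4141, 3759 and 4324 FPKM in the deletion. The strains did not overlap for either gene, and the deletion means were 227 times as high for cel6A and 166 times for cel61A (adjusted p = 2.2e-16). The endoglucanase genes cel7B (PDE_07929) and cel5B (PDE_09226) cut within the chain. cel7B stood at 199, 205 and 208 FPKM in M12 and 3755, 3965 and 3956 FPKM in the deletion. cel5B stood at 134, 136 and 146 FPKM in M12 and 5613, 5020 and 5594 FPKM in the deletion. Neither gene had overlapping libraries, and the means were 19.1 times as high for cel7B and 39.1 times for cel5B (adjusted p = 1.8e-17 and 1e-14). A lack of overlap was the rule at changes of at least 2-fold. It held for 473 of the 475 genes higher and for all 1236 genes lower, so it singles out no gene among them.

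Because the 5 genes rose by different factors, the make-up of the cellulase RNA was different in the deletion. This measure is a share of the summed FPKM of the 5 genes within a library, so no scaling between libraries enters it. cel7A-2 made up 70.1%, 70.9% and 71.1% of the cellulase RNA in M12 and 51.8%, 52.5% and 50.6% in the deletion. cel6A went from 4.68%, 4.01% and 4.70% to 25.4%, 25.1% and 26.2%. cel61A went from 1.66% ± 0.0593 to 6.94% ± 0.303 and cel7B from 13.8% ± 0.435 to 6.64% ± 0.332 (SD, n = 3 each). These 4 shares had no overlap between the strains, each with p = 0.1 in an exact two-sided permutation test, the smallest 3 against 3 can give (0.125 adjusted over the 5 shares). cel5B, at 9.37% ± 0.0537 in M12 and 9.22% ± 0.325 in the deletion, overlapped (exact permutation p = 0.9). The 2 cellobiohydrolase transcripts stood at a cel6A to cel7A-2 ratio of 0.0631 ± 0.00566 in M12 and 0.496 ± 0.0195 in the deletion (SD, n = 3 each).

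The strain with the ClrB mutant had another mix on the same carbon source. In gClrBID on cellulose cel7A-2 held 37.3% ± 0.312, cel6A 23.2% ± 0.125, cel5B 27.1% ± 0.767, cel7B 11.5% ± 0.410 and cel61A 0.910% ± 0.193 of the cellulase RNA (SD, n = 3 each). cel5B thus held more of the cellulase RNA in gClrBID than in either other strain on cellulose, and cel61A less.

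The 2 beta-glucosidase genes did not move together (1 higher and 1 lower of 2, beside 21.2% and 54.2% of all tested genes). Beta-glucosidases split cellobiose into glucose. bgl2 (PDE_00579) stood at 333, 350 and 342 FPKM in M12 and at 2584, 2354 and 2473 FPKM in the deletion, 7.23 times as high (adjusted p = 1.6e-15). PDE_02736 stood at 232, 257 and 264 FPKM in M12 and at 186, 198 and 229 FPKM in the deletion. All 3 deletion libraries were below the lowest M12 library, at -0.30 ± 0.09 on the log2 scale (SE, adjusted p = 0.0095). That value is about the median of all genes, and after rescaling to the median ratio it was 0.02 with an adjusted p of 0.84. Without creA deletion replicate 1 the adjusted p was 0.052. The ratio of bgl2 to PDE_02736 within a library does not depend on scaling, and it was 1.44, 1.36 and 1.30 in M12 and 13.9, 11.9 and 10.8 in the deletion.

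The xylanase gene xyn10A (PDE_08094), whose enzyme cuts the main chain of xylan, stood at 287, 287 and 293 FPKM in M12 and at 9435, 8916 and 9775 FPKM in the deletion. The 2 sets lay far apart, with the deletion 32.5 times as high (adjusted p = 6.8e-16). The ratio of xyn10A to cel7A-2 was 0.288, 0.278 and 0.264 in M12 and 0.307, 0.299 and 0.323 in the deletion, close together but without overlap. In gClrBID on cellulose that ratio was 1.53 ± 0.0873 (SD, n = 3). The cellodextrin transporter gene cdtC (PDE_00607), whose product imports short cellulose fragments, stood at 1181, 1211 and 1145 FPKM in M12 and at 3102, 2859 and 2796 FPKM in the deletion. It rose in all 3 libraries, by 1.31 ± 0.07 in log2 units (SE, 3 libraries a group, adjusted p = 8.8e-11).

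The 10 enzyme genes, which are the cellulase, beta-glucosidase, xylanase and amylase genes named here, took 0.418% ± 0.0151 of the fragments in M12 and 10.3% ± 0.289 in the deletion (SD, n = 3 each). Of these 10, 9 were higher and 1 was lower, with a median log2 fold change of 4.55. Over all tested genes 21.2% were called higher.

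Both genes for starch-degrading enzymes were also higher (2 of 2, beside 21.2% of all tested genes). Starch was not a carbon source of the cultures. amy13A (PDE_01201), for an alpha-amylase, stood at 24.6, 19.3 and 23.9 FPKM in M12 and at 120, 124 and 153 FPKM in the deletion, a difference of 2.50 ± 0.15 (log2, SE, adjusted p = 5e-10). amy15A (PDE_09417), for a glucoamylase, stood at 211, 147 and 182 FPKM in M12 and at 290, 349 and 418 FPKM in the deletion, a difference of 0.97 ± 0.12 (log2, SE, adjusted p = 3.3e-06). Neither gene had overlapping libraries. Of the pair, amy13A had the larger change and the lower level.

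Besides creA, 4 regulator genes were examined, of which 1 was higher, 2 were lower and 1 was not called, with a median of -0.25. That is 3 of 4 called, beside 75.4% of all tested genes. amyR (PDE_03964), for the activator of amylase genes, stood at 180, 144 and 167 FPKM in M12 and at 53.5, 69.1 and 71.7 FPKM in the deletion. It fell by 1.33 ± 0.10 in log2 units (SE, 3 libraries a group, adjusted p = 1.1e-08), while both amylase genes rose. clrB (PDE_05999), for the activator of cellulase genes, stood at 160, 148 and 150 FPKM in M12 and at 109, 101 and 113 FPKM in the deletion. All deletion libraries were below M12 (-0.50 ± 0.11 on the log2 scale, SE, adjusted p = 0.00068), but after rescaling to the median ratio the value was -0.18 with an adjusted p of 0.14. Neither scaling gave a higher clrB level in the deletion. Whether the clrB level bears on the rise of the cellulase genes was not tested.

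xlnR (PDE_07674), for the activator of xylanase genes, stood at 41.9, 43.2 and 41.4 FPKM in M12 and at 43.8, 41.0 and 42.5 FPKM in the deletion. The libraries overlapped, with a difference of 0.01 ± 0.05 (log2, SE, adjusted p = 0.88). After rescaling to the median ratio xlnR was higher by 0.32 with an adjusted p of 1.2e-05, so whether it moved depends on the scaling. brlA (PDE_00087), for a regulator of asexual spore formation, stood at 35.3, 41.4 and 50.2 FPKM in M12 and at 346, 335 and 271 FPKM in the deletion. It was higher in all 3 deletion libraries, by 2.88 ± 0.15 in log2 units (SE, 3 libraries a group, adjusted p = 7.7e-11).

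**Figure D3:**
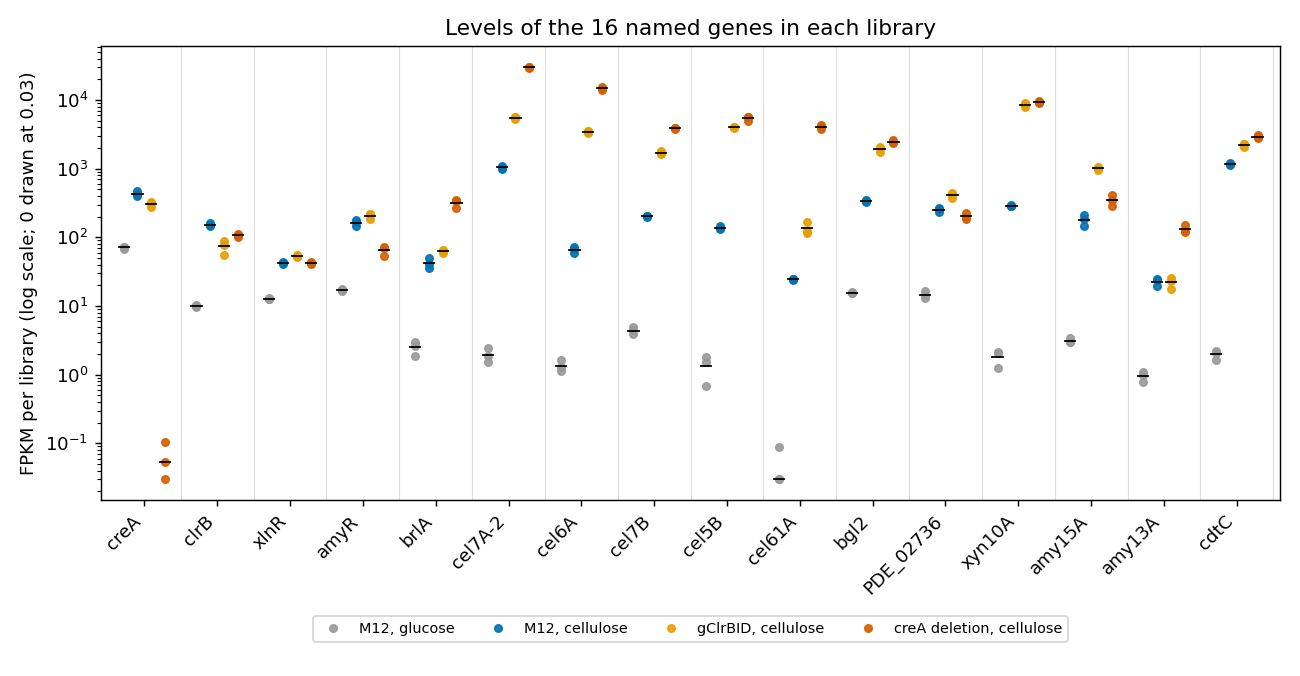
FPKM per library on a log scale for the 16 fixed genes in M12 on glucose and in M12, gClrBID and the creA deletion on cellulose; points are libraries and bars are means of 3. The 5 cellulase genes stand highest in the deletion and xyn10A overlaps gClrBID there, whereas amyR and clrB stand lower there than in M12 on cellulose and xlnR overlaps.

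The creA deletion and gClrBID strains were set against each other directly on cellulose, to see where the loss of the repressor and the altered activator differ. Of the 8765 genes, 6149 were called (70.2%), 1737 higher (19.8%) and 4412 lower (50.3%) in the deletion than in gClrBID. At least 2-fold, 519 were higher (5.92%) and 919 lower (10.5%). Rescaling to the median ratio moved the median of all genes from -0.21 to 0.03 and made the split 3136 higher and 2752 lower, and 660 and 656 at least 2-fold. With voom on the fragments and that scaling, 782 were higher and 829 lower at least 2-fold. Against that background all 5 cellulase genes were higher in the deletion, with a median log2 difference of 2.12. The differences were 2.45 ± 0.08 for cel7A-2, 2.12 ± 0.08 for cel6A and 1.19 ± 0.06 for cel7B (log2, SE, adjusted p = 3.8e-13, 2.3e-12 and 4.1e-11). cel61A differed by the widest margin among the 5. It stood at 169.6, 122.2 and 113.8 FPKM in gClrBID and between 3759 and 4324 FPKM in the deletion, a log2 difference of 4.92 ± 0.13 (SE, n = 3 per group, adjusted p = 2.4e-14). cel5B was closest, at 3937, 4098 and 4018 FPKM in gClrBID, with a log2 difference of 0.43 ± 0.13 (SE, adjusted p = 0.0066). Its call was lost with a pseudocount of 0.1 (adjusted p = 0.087).

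For the xylanase, beta-glucosidase and transporter genes, the log2 differences between these strains ran from -1.04 to 0.40. xyn10A stood at 9123, 8503 and 7872 FPKM in gClrBID, overlapping the deletion libraries, and was not called (0.14 ± 0.09 on the log2 scale, SE, adjusted p = 0.19). Its call depends on the setting, since it was higher in the deletion by 0.41 after rescaling to the median ratio (adjusted p = 0.0010), and voom on the fragments called it at the same 0.14 (adjusted p = 0.039). bgl2 and cdtC were higher in the deletion by 0.34 ± 0.06 and 0.40 ± 0.07 on the log2 scale (SE, adjusted p = 8e-05 and 8.4e-05). PDE_02736, at 379, 431 and 449 FPKM in gClrBID, was lower in the deletion (-1.04 ± 0.09, log2, SE, adjusted p = 7.3e-08).

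The amylase genes split between the strains. amy15A stood at 961, 1021 and 1066 FPKM in gClrBID, above all deletion libraries, with a log2 difference of -1.54 ± 0.12 (SE, adjusted p = 1.8e-08). amy13A stood at 17.79, 22.98 and 25.35 FPKM in gClrBID, below all deletion libraries, with a log2 difference of 2.54 ± 0.15 (SE, adjusted p = 5e-10). amyR had a log2 difference of -1.67 ± 0.10 and brlA of 2.32 ± 0.15 from gClrBID to the deletion (SE, adjusted p = 8.1e-10 and 1.3e-09). clrB was higher in the deletion than in gClrBID, where it stood at 56.0, 76.2 and 88.8 FPKM (0.56 ± 0.11, log2, SE, adjusted p = 0.00029). xlnR, at 52.6, 52.9 and 54.4 FPKM in gClrBID, was lower in the deletion by the FPKM values (-0.32 ± 0.05, log2, SE, adjusted p = 2e-05), a call that was lost after rescaling to the median ratio (-0.06, adjusted p = 0.23).

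How the genes changed was also read by their level in M12 on glucose, in libraries that the comparison does not contain. All genes of the table are the base here, because a gene near 0 on glucose could enter the test only by reaching 1 FPKM in other libraries. Of the 1849 genes under 1 FPKM on glucose, 9.25% were higher at least 2-fold in the deletion and 3.95% were lower. Of the 1787 genes between 1 and 10 FPKM, 9.18% were higher and 17.9% lower. From 10 FPKM upwards rises became rarer. They made up 2.07% of 4741 genes between 10 and 100 FPKM, 2.90% of 1379 genes between 100 and 1000 FPKM and 0.909% of 220 genes at 1000 FPKM or more, beside falls of 12.8%, 15.3% and 10.5%. Genes that were higher at least 2-fold had a median of 3.004 FPKM in M12 on glucose, 11.3 FPKM in M12 on cellulose and 72.7 FPKM in the deletion. Those lower at least 2-fold had medians of 23.9, 57.2 and 19.1 FPKM in the same order. Under rescaling to the median ratio the 2 lowest classes had 10.01% and 11.64% higher, and the 3 upper classes 4.89%, 5.80% and 5.45%. The shares lower were then 2.92%, 11.75%, 7.17%, 8.85% and 6.36% from the lowest class to the highest, so that rises and falls were about even between 1 and 10 FPKM.

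**Figure D4:**
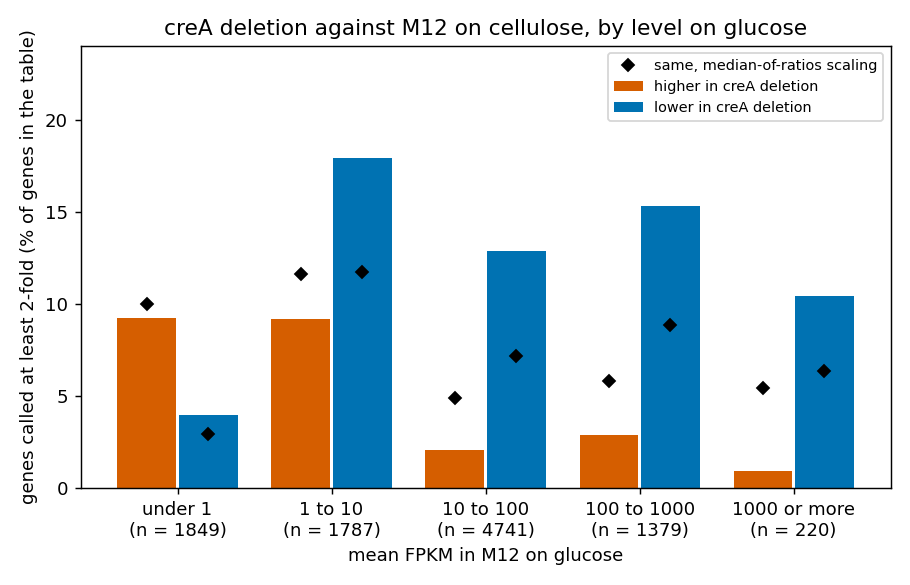
Share of the genes of the table (%) called at least 2-fold higher or lower in the creA deletion on cellulose, by mean FPKM in M12 on glucose; diamonds give the same after rescaling to the median ratio. The share higher is 9.25% and 9.18% in the 2 lowest classes and between 0.909% and 2.90% in the others.

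A few genes went from near nothing in M12 to clear expression. In 12 genes all 3 M12 libraries on cellulose were under 1 FPKM and all 3 deletion libraries at 10 FPKM or more, with medians of 0.373 and 39.0 FPKM. Of these 12, 10 were also under 1 FPKM in M12 on glucose and 8 in gClrBID on cellulose. The reverse was found for 5 genes, namely creA and 4 without a name. With a limit of 5 FPKM in place of 10 the numbers were 17 and 15.

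Some of the genes that rose carried consecutive tag numbers. The tags run from 1 to 10013, and 9942 of the 9976 are followed by the next number. Whether that order is the order on the chromosomes was not checked, because the table gives no positions. Runs of at least 5 consecutive tags, all called higher at least 2-fold, numbered 5 and held 53 tags, which is 11.2% of the 475 genes. Runs of at least 5 that were lower numbered 7 and held 47 tags, 3.80% of the 1236. After rescaling to the median ratio there were 7 runs of rises with 63 tags and 4 runs of falls with 28 tags.

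The longest run of rises held 23 tags from PDE_00789 onwards. Its summed level was 642, 592 and 756 FPKM in M12 and 6194, 6035 and 5990 FPKM in the deletion. Single genes rose by 1.71 to 4.45 on the log2 scale with a median of 3.41. The median level of the 23 genes was 0.264 FPKM in M12 on glucose, 14.1 FPKM in M12 on cellulose, 33.3 FPKM in gClrBID on cellulose and 216 FPKM in the deletion. All 23 were called higher in the deletion than in gClrBID, beside 19.8% of all tested genes, with a median log2 difference of 2.34. The deletion libraries that chose the run enter that comparison too, so it is no independent test. Against M12, all 23 stayed at 2-fold or more after rescaling to the median ratio. That had to be so, because the rescaling raises these values and the lowest was already 1.71. The tag just before the run did not pass the test (-0.14, adjusted p = 0.64). The other 4 runs of rises held 12, 8, 5 and 5 tags with median log2 changes of 3.81, 3.21, 4.11 and 1.74. The run of 8 and the first of 5 are parted by a single tag listed at 0 in both strains. In all 5 runs the median level on glucose in M12 was below 1 FPKM, at 0.0170 to 0.264 FPKM.

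The longest run of falls held 12 tags from PDE_01211 onwards. Its summed level was 3457, 3354 and 3575 FPKM in M12 and 790, 721 and 732 FPKM in the deletion. The log2 changes had a median of -2.57 and ran from -1.63 to -3.60. Unlike the longest run of rises, these genes were expressed on glucose, with a median of 123 FPKM in M12, against 174 FPKM in M12 on cellulose and 25.4 FPKM in the deletion. All 12 were called lower in the deletion than in gClrBID, beside 50.3% of all tested genes, with a median log2 difference of -4.55. As the run was chosen with these deletion libraries, that is no independent test. The median of the 12 genes in gClrBID on cellulose was 837 FPKM. The 7 runs of falls did not share this order: on cellulose the median of gClrBID was above that of M12 in 3 and below it in 4. One run of 7 tags had medians of 122 FPKM in M12, 810 FPKM in gClrBID and 18.4 FPKM in the deletion, and the other run of 7 had 81.0, 25.7 and 27.8 FPKM. The coding lengths of the 12 genes, worked back from the values, ran from 618 to 21843 bases. The files give no product for any gene of these runs.

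**Figure D5:**
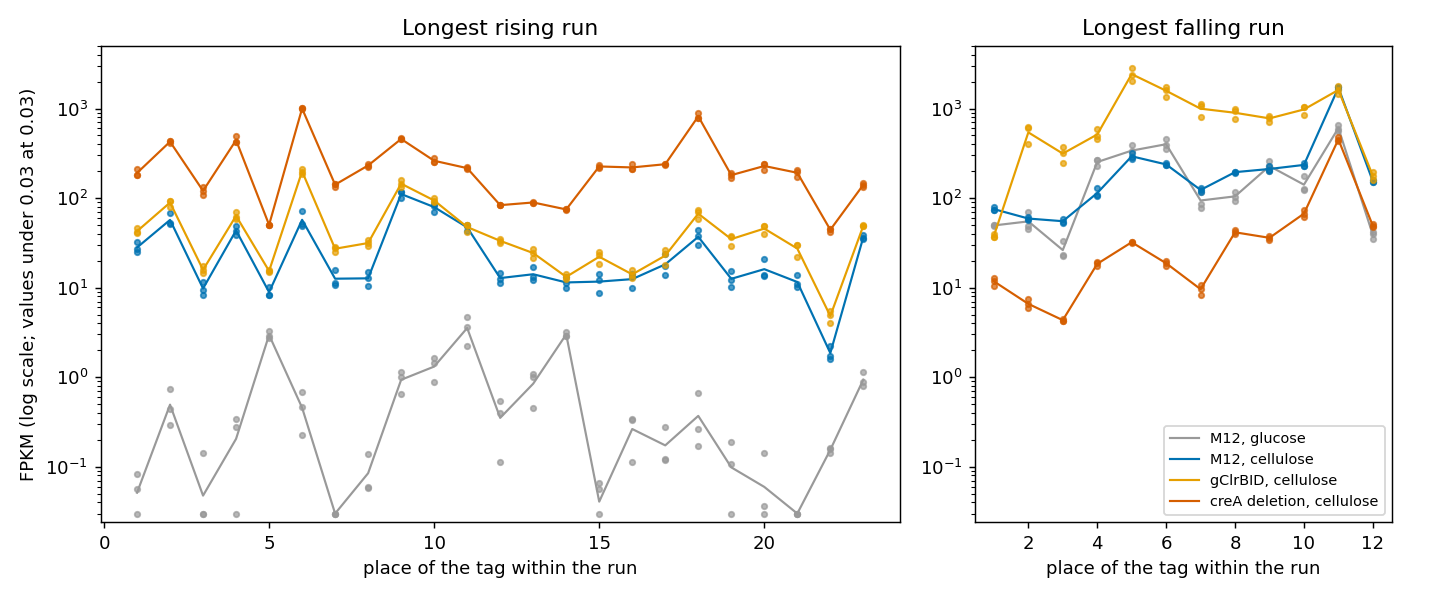
FPKM on a log scale along the longest run of rises (23 tags) and of falls (12 tags) for M12 on glucose and for M12, gClrBID and the creA deletion on cellulose; points are libraries and lines join means of 3. Along the first run the deletion stands above M12 on cellulose at all 23 tags, and along the other below it at all 12. Both follow from the rule that chose the runs.

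The gene with the largest gain in FPKM outside the named genes was PDE_09832, a short gene of 492 coding bases. It stood at 33632, 31146 and 34380 FPKM in M12 and at 90511, 98581 and 86750 FPKM in the deletion, with 222 ± 15.9 FPKM in M12 on glucose (SD, n = 3). It was the most abundant gene of M12 on cellulose, with 1.63% ± 0.0833 of the fragments, and took 4.52% ± 0.297 in the deletion (SD, n = 3 each). The log2 difference was 1.48 ± 0.09 (SE, adjusted p = 2.8e-10). The largest loss was that of PDE_09166, with 366 coding bases, which stood at 17390, 18425 and 17990 FPKM in M12 and at 8792, 7782 and 8254 FPKM in the deletion. Its log2 difference was -1.12 ± 0.07 (SE, adjusted p = 8.5e-10), and -0.79 after rescaling to the median ratio. Neither gene had overlapping libraries.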

How the data were processed

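RNA was measured in stranded mRNA libraries, 3 per group, per the labels' protocols. The authors deposited 1 table of FPKM values for 9976 genes, whose 15 columns carry the sample titles. The submitters' processing notes list 4 tools without their roles: HISAT2 2.0.0, CASAVA 1.8, DESeq2 and featureCounts 1.5.0-p1. Genome build, annotation and strandedness of counting are not given in the sources used here, so reads shared by near-identical, overlapping or antisense genes could not be assessed.

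In such a table each FPKM is a whole number of fragments times a constant of its gene and library. Solving for those constants turned all 9789 genes above 0 into whole fragments, within 5e-05 FPKM. A common factor of 3.0 was removed from the totals, and the lengths were read as coding length. Depth lay between 10129672 and 18361206 fragments per library.

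Fold changes were estimated on log2(FPKM + 1), which understates changes of low genes, with limma 3.58.1 in R 4.3.3, in 1 model of 5 group means over the 15 libraries with moderated variances and an intensity trend. A gene was tested at 1 FPKM or more in at least 3 libraries and called at a Benjamini-Hochberg adjusted p under 0.05 over the 8765 tested genes. Every adjusted p for a gene is limma's. The model was tested on simulated data. No covariate or block was used.

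The members, the 16 fixed genes, their lists and the tests were chosen with earlier results of these data known. The rule for names took those 16 genes and, in each direction, the gene with the largest difference in FPKM and the first tag of the longest run. No gene list of another strain matched the identifiers, so no further gene is named and no sequence is shown. Alternatives covered scaling (median of ratios, TPM), the pseudocount, the filter, the libraries in the fit, the replicate block, voom on fragments and leaving out each library.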

Additional observations from a re-analysis of the deposited data

How the results depend on the processing

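The split between higher and lower calls depended on scaling, while the named genes mostly did not. With median-of-ratios scaling the creA deletion had 3208 genes higher and 3078 lower than M12, and 717 and 740 at least 2-fold. With voom on the fragments and the same scaling it had 3232 and 3089, and 852 higher at least 2-fold. Against gClrBID the numbers were 3136 and 2752 with that scaling, 3154 and 2775 with voom added, and 782 higher at least 2-fold. Leaving out each library in turn gave 1746 to 1781 genes higher and 4526 to 4676 lower than M12. Of 240 values of the 16 genes against M12 under alternatives, 230 kept direction and side of the threshold, 3 lost the call, 2 gained it and 5 changed sign. The sign changed for PDE_02736 (0.0236, and 0.0231 with voom) and for xlnR, to -0.0411 as TPM, -0.0132 without creA deletion replicate 1 and -0.0046 without M12 replicate 3, none of them called. Leaving out each library gave xlnR -0.0132 to 0.0326. As shares of summed FPKM the 10 enzyme genes held 0.253% in M12 and 6.78% in the deletion, and the 100 most abundant genes 35.3% and 45.9%. With the replicate number as a block 1839 genes were higher and 4735 lower than M12. The deviations of same-numbered libraries of the 2 strains from their group means had r across genes of -0.025, 0.086 and -0.049. Libraries with different numbers had -0.092 to 0.106. No pairing by number was seen, but 3 libraries a group cannot show whether cultures shared a batch. Precision is limited by 3 libraries per group.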

Other observations

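The tags around the 16 fixed genes were read in the same comparison of the creA deletion with M12 on cellulose. Within 5 tags on either side lay 160 tags, of which 138 were tested. Of these, 11 were higher at least 2-fold (7.97%, against 5.42% of all tested genes) and 25 were lower (18.1%, against 14.1%). Beside cel7B the highest neighbour rose by 3.90 on the log2 scale, and beside amy13A the neighbours ranged from -3.05 to 2.48. Around cdtC 4 of 9 tested neighbours were lower and 1 was higher. None of the 10 tested neighbours of bgl2 changed by 2-fold, with values from -0.54 to 0.57.

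Gene length differed little between the classes. The median coding length was 1212 bases over all tested genes, 1194 bases in the 475 that were higher at least 2-fold and 1110 bases in the 1236 that were lower.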
